A study of Rattus norvegicus with 9 samples.

Results

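The sensory neuron identity transcription factors are 10 genes, Isl1, Pou4f1, Pou4f2, Pou4f3, Runx1, Runx3, Prdm12, Tlx3, Drgx and Shox2, taken by their symbols from the 20194 genes of the deposited expression table. All 10 were found, each as 1 row, and all 10 passed the expression filter (at least 1 FPKM in at least 1 library) along with 14305 genes in total. They were measured by RNA sequencing in dorsal root ganglia (DRG) of male Sprague Dawley rats in 3 groups of 3 libraries: sham surgery, spared nerve injury (SNI), in which 2 of the sciatic nerve's branches are tied and cut and the sural branch is left intact, and SNI rats given G15, an antagonist of the G protein-coupled oestrogen receptor GPER, into the spinal canal (SNI + G15). Per the labels, catheters were placed on day 5 after injury and drugs were given for 24 h in 2% DMSO. The sham and SNI libraries are labelled as controls for G15, and no label says whether these rats received the vehicle. The drug and the catheter can therefore not be told apart in the comparison of SNI + G15 with SNI. Each library was a whole ganglion extract, so fewer cells of a type and less RNA per cell cannot be told apart in any result below, and neurons with cut axons were measured together with neurons whose axons were intact.

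Sensory neurons of the DRG arise from neural crest cells, and their fates are set by transcription factors, proteins that bind DNA and switch genes on or off. Isl1 (a LIM homeodomain protein) and Pou4f1 (Brn3a) are made by nearly all of these neurons as they leave the cell cycle, and they end the progenitor programme and start the sensory one. Later factors divide the neurons into classes. Prdm12 is needed to form pain-sensing neurons (nociceptors), Runx1 steers nociceptors to the nonpeptidergic class, Runx3 is needed by proprioceptors, Shox2 by touch neurons that carry TrkB, and Tlx3 and Drgx act in pain circuits of the ganglion and dorsal horn. Many of these genes stay on in the adult, where they help to keep a neuron's class.

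Promoter sequences were available from RefSeq (build GRCr8) for 9 of the 10 genes, in 11 windows, and for all but Shox2. The 250 bases upstream of the annotated start are shown for Prdm12 (2 annotated starts), the gene with the highest sham level and a clear fall after injury, and for Tlx3 and Drgx, which moved in opposite directions with G15. Capitals mark TAAT on either strand, the core bound by homeodomain proteins such as Isl1, Tlx3, Drgx and Shox2, and ACCACA on either strand, the site bound by Runx proteins. Overlapping matches are counted separately.
Prdm12, start 1 (GRCr8 chr3:35322712-35322961, plus strand): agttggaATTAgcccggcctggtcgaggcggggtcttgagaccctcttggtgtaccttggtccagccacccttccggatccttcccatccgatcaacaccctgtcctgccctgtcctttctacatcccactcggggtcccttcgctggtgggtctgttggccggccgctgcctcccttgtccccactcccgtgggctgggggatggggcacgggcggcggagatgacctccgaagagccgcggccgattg
Prdm12, start 2 (GRCr8 chr3:35325758-35326007, plus strand): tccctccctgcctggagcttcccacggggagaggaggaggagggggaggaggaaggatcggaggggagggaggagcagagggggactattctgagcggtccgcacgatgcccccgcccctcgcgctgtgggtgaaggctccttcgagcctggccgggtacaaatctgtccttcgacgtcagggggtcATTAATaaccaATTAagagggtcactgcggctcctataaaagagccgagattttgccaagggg
Tlx3 (GRCr8 chr10:18296552-18296801, minus strand): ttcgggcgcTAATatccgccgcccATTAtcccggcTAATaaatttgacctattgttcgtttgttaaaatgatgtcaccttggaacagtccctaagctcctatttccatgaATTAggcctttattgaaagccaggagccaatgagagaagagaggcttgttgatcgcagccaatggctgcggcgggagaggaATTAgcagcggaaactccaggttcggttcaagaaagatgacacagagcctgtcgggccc
Drgx (GRCr8 chr16:7860907-7861156, plus strand): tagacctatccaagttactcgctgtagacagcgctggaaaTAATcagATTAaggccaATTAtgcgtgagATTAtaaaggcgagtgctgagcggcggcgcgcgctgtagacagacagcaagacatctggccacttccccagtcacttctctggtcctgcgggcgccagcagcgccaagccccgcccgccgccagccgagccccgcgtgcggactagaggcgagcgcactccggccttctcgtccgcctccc
TAAT occurred 5 times upstream of Tlx3, 4 times upstream of Drgx, once at the first Prdm12 start and 3 times within a short stretch at the second. It was present in 6 of the 11 windows of these genes and in 57.0% of all 33469 upstream windows of the same length. ACCACA occurred in 1 of the 11 windows, 2 times upstream of a Runx3 start, against 14.5% of all windows. The AP-1 site TGANTCA, bound by the injury-induced Jun and Atf3 families, was in 0 of the 11 windows and in 6.34% of all windows. The CRE site TGACGTCA, searched for as well, was in 1 of the 11 windows, upstream of a Runx3 start, against 1.59% of all windows. These matches describe letters only.

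In sham ganglia the 10 genes spanned a wide range of levels in FPKM, a unit that corrects for transcript length. Their order was Prdm12, Tlx3, Pou4f1, Drgx, Isl1, Shox2, Pou4f3, Runx1, Runx3 and Pou4f2, and no pair of neighbours in that order overlapped in range over the 3 libraries. The means ran from 67.9 ± 3.63 FPKM (SD, n = 3) for Prdm12 to 5.83 ± 0.331 for Pou4f2. In SNI the order changed at the top: Prdm12 moved from first place to the third, below Tlx3 and Pou4f1. The ranges of Shox2 and Pou4f3, and those of Pou4f3 and Runx1, then overlapped. In SNI + G15 the order was that of SNI, except that Pou4f3 came below Runx1, and the ranges of Shox2 and Runx1, and of Runx1 and Pou4f3, overlapped.

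**Figure D1:**
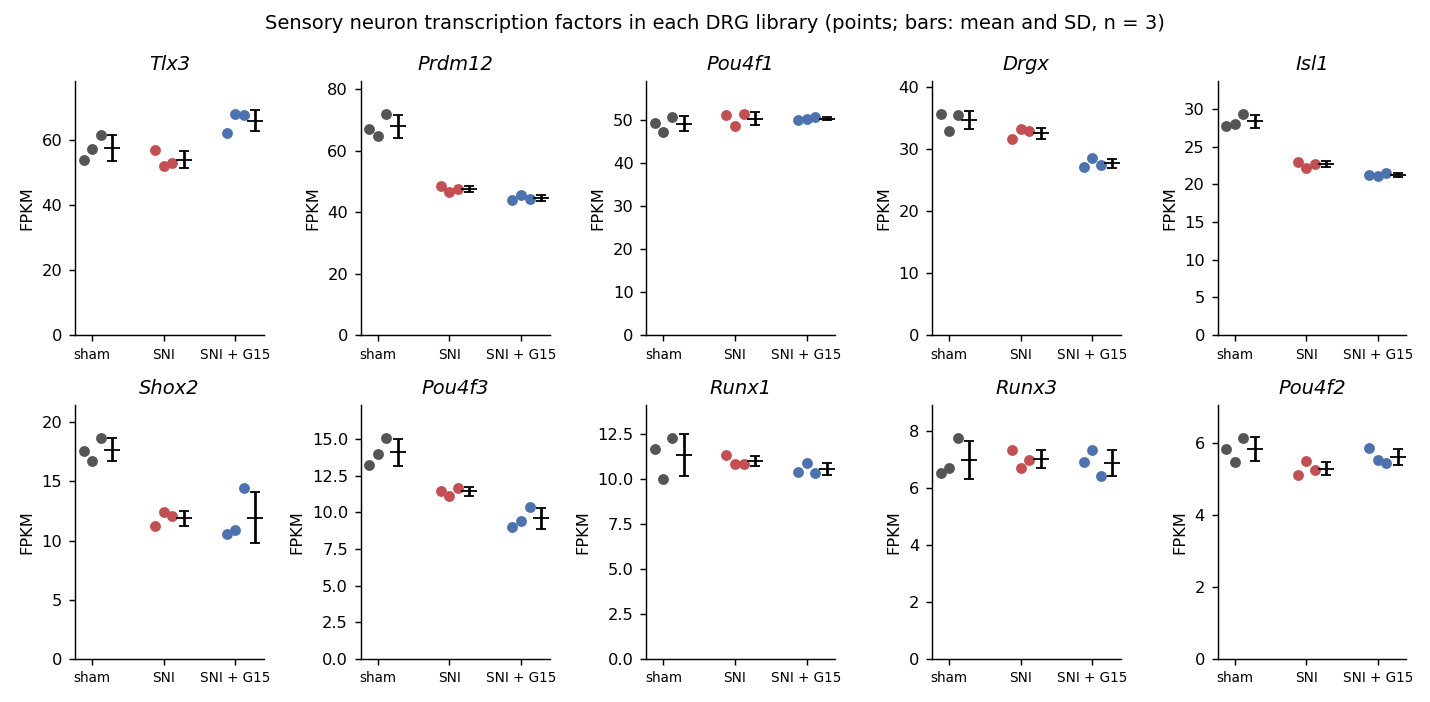
FPKM of each of the 10 genes (one panel per gene, each with its own linear axis from 0) in the 3 sham, 3 SNI and 3 SNI + G15 libraries (points), with the group mean and SD (bars). Prdm12, Isl1, Shox2 and Pou4f3 sat lower in all 6 injured libraries than in the sham libraries, Pou4f1 stayed between 47.3 and 51.4 FPKM, and Tlx3 was highest with G15.

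After nerve injury 6 of the 10 factors fell and none rose. Shox2 fell by 34.1%, Prdm12 fell by 30.9%, Isl1 fell by 21.7% and Pou4f3 fell by 20.6%. Runx1 fell by 11.9% and Drgx fell by 8.05%, this last pair just inside the threshold (adjusted p under 0.05, edgeR quasi-likelihood test with Benjamini-Hochberg adjustment over all tested genes). Pou4f1, Pou4f2, Runx3 and Tlx3 did not pass the test. At an unadjusted p under 0.05 the edgeR counts were 7 lower and 0 higher, and after adjustment DESeq2 and limma each called 4 as lower and 0 as higher. Over all tested genes edgeR called 45.7% in this comparison, 23.3% as higher and 22.4% as lower. DESeq2 called 37.4% of all tested genes, and limma 42.7% on log2(FPKM + 1) and 42.5% on log2(FPKM + 0.1). The median log2 fold change of the 10 genes was -0.18, against 0.0010 over all tested genes, and 9 of the 10 values were below 0. The median of the 10 was -0.10 and -0.11 by limma, and -0.12 on the scale of pan-neuronal markers, where that of all tested genes was 0.06.

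Prdm12, a zinc finger protein with a PR domain whose loss in people causes inability to feel pain, had 67.1, 64.8 and 71.9 FPKM in sham, 48.4, 46.5 and 47.5 in SNI and 44.1, 45.8 and 44.3 in SNI + G15. Every injured library was below every sham library. The log2 fold change of SNI against sham was -0.53 (SE 0.054, 95% interval -0.65 to -0.41, adjusted p = 1.89e-05).

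Shox2, a homeodomain protein of TrkB touch neurons, had 17.6, 16.8 and 18.7 FPKM in sham and 11.2, 12.4 and 12.1 in SNI. Its groups did not overlap, and its log2 fold change of -0.60 (SE 0.063, adjusted p = 2.43e-05) was the lowest of the 10. In SNI + G15 it had 10.5, 10.9 and 14.4 FPKM, so that replicate 3 stood above the others of its group and above all SNI libraries.

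Isl1 had 27.8, 27.98 and 29.3 FPKM in sham and 23.0, 22.2 and 22.7 in SNI, again without overlap. Its log2 fold change was -0.35 (SE 0.052, adjusted p = 0.000282). Pou4f3 (Brn3c), best known from hair cells of the inner ear and also present in sensory ganglia, had 13.2, 14.0 and 15.1 FPKM in sham and 11.5, 11.1 and 11.7 in SNI. It did not overlap either, at a log2 fold change of -0.33 (SE 0.061, adjusted p = 0.00128). These genes, with Prdm12 and Shox2, were the 4 of the 10 whose FPKM ranges did not overlap between SNI and sham, against 53.9% of all tested genes. All 4 stayed called under each of the 16 alternatives of the processing that were run.

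Runx1 and Drgx were less secure. Drgx, a paired-type homeodomain protein of DRG and dorsal horn neurons, had 35.6, 32.9 and 35.4 FPKM in sham and 31.5, 33.2 and 32.8 in SNI, and the groups overlapped. Its log2 fold change of -0.12 (SE 0.045, adjusted p = 0.0499) lost the call in 11 of the 16 alternatives. Runx1 had 11.7, 10 and 12.3 FPKM in sham and 11.3, 10.8 and 10.8 in SNI, a nearly equal mean of 11.3 and 10.98. Its estimated counts (850, 761 and 913 in sham, 780, 731 and 759 in SNI) gave a log2 fold change of -0.18 (SE 0.068, adjusted p = 0.0468), which lost the call in 9 of 16 alternatives and was -0.03 on log2(FPKM + 1).

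Among the factors that did not pass, Pou4f1 was the steadiest. Its FPKM was 49.2, 47.3 and 50.8 in sham, 51.1, 48.5 and 51.4 in SNI and 50.01, 50.3 and 50.7 in SNI + G15, all overlapping. The log2 fold change of SNI against sham was 0.0064 (95% interval -0.087 to 0.10, adjusted p = 0.915), with a value below 0 under some alternatives. Runx3, with 146 to 175 estimated reads the least covered of the 10, had 6.51, 6.68 and 7.75 FPKM in sham and 7.32, 6.68 and 6.99 in SNI. Its interval, -0.24 to 0.19 around a log2 fold change of -0.03, allows a change of the size seen for Runx1. Tlx3, a homeodomain protein that acts upstream of Drgx in the dorsal horn, had 54.0, 57.3 and 61.8 FPKM in sham and 57.0, 52.2 and 53.0 in SNI, overlapping, with a log2 fold change of -0.12 (SE 0.058, adjusted p = 0.111). Pou4f2 (Brn3b), best known from retinal ganglion cells, had 5.85, 5.49 and 6.15 FPKM in sham and 5.13, 5.50 and 5.25 in SNI. It missed the threshold narrowly, at -0.17 (SE 0.065, adjusted p = 0.0539). The estimated counts of Pou4f1 and Pou4f2 were not whole numbers in 9 of 9 libraries, but their sum was whole in each. This is as where reads that match both genes are divided between them, so the split between these close relatives is uncertain.

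Ratios within a library do not depend on how libraries are scaled to each other. The ratio of Prdm12 to Pou4f1 in FPKM was 1.36, 1.37 and 1.42 in the sham libraries, 0.947, 0.959 and 0.924 in SNI, and 0.881, 0.91 and 0.872 in SNI + G15. Prdm12 thus exceeded Pou4f1 in each sham library and was below it in each injured one. The ratio of Isl1 to Pou4f1 was 0.578 ± 0.0138 (SD, n = 3) in sham, 0.45 ± 0.0081 in SNI and 0.423 ± 0.0037 in SNI + G15. For Runx3 to Pou4f1 the means were 0.142 ± 0.0102, 0.139 ± 0.0037 and 0.137 ± 0.0096, within the spread of the libraries.

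**Figure D2:**
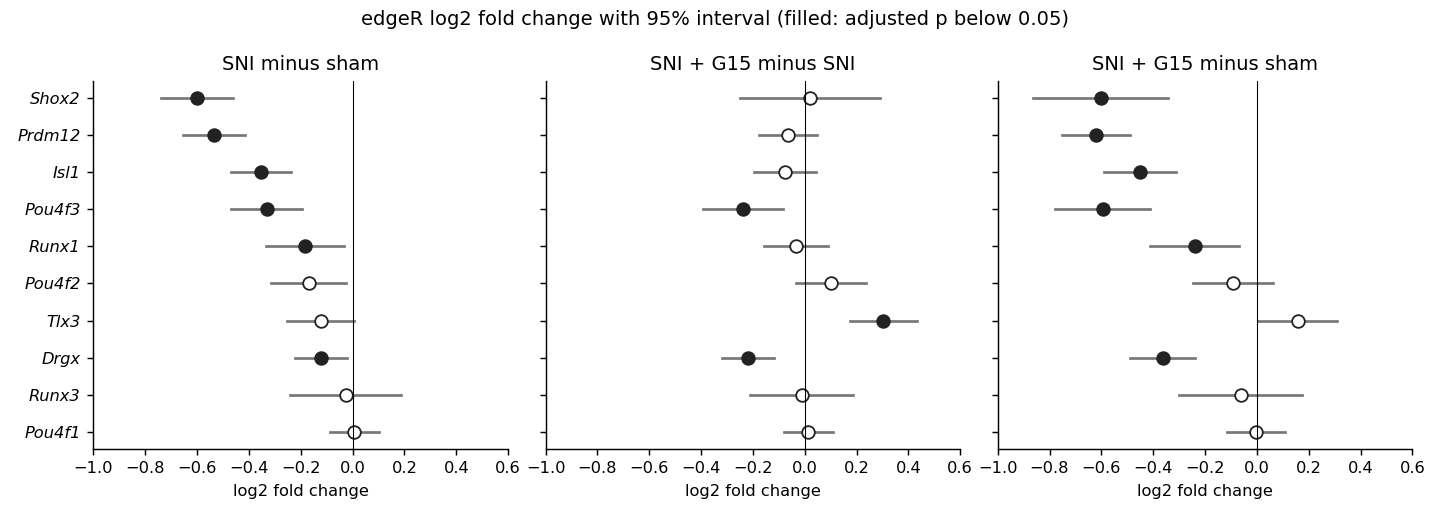
Log2 fold change of each of the 10 genes (rows) with its 95% interval from edgeR for SNI minus sham, SNI + G15 minus SNI and SNI + G15 minus sham; filled points have an adjusted p below 0.05. Shox2, Prdm12, Isl1 and Pou4f3 lie farthest to the left after injury, and Tlx3 (0.30) is the filled point on the right with G15.

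With G15 after injury 3 of the 10 factors passed the test: Tlx3 was higher, and Drgx and Pou4f3 were lower, than in SNI without the drug. Tlx3 rose by 23.4%, Drgx fell by 14.1% and Pou4f3 fell by 15.3%. The other 7, Prdm12, Isl1 and Shox2 among them, did not pass. Over all tested genes 15.2% were called, 7.98% as higher and 7.25% as lower. The median of the 10 genes was -0.02, against 0.0063 over all tested genes. On the scale of pan-neuronal markers it was 0.02, against 0.048 over all tested genes.

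Tlx3 had 62.3, 68.1 and 67.8 FPKM in SNI + G15, and in FPKM each of these libraries was above each sham and SNI library. In TMM-scaled CPM, the scale of the test, SNI + G15 replicate 1 (98.1) was above the SNI libraries (at most 90) but below sham replicate 3 (100.3). Its log2 fold change against SNI was 0.30 (SE 0.057, 95% interval 0.17 to 0.43, adjusted p = 0.00939). Drgx had 27.1, 28.4 and 27.4 FPKM in SNI + G15, below all other libraries, at a log2 fold change of -0.22 (SE 0.045, adjusted p = 0.0132). Pou4f3 had 9, 9.4 and 10.3 FPKM, also below all other libraries, at -0.24 (SE 0.068, adjusted p = 0.0467).

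Each of these calls was lost under some alternatives. Without SNI replicate 2 or without SNI replicate 3, 0 of the 10 genes were called by edgeR, although 3 had an unadjusted p under 0.05 in each case, and over all tested genes the called share dropped to 6.47% and 6.24%. Tlx3 then had adjusted p = 0.0538 and 0.0522, and Drgx 0.0683 and 0.0651, while their log2 fold changes hardly moved (0.28 and 0.29 for Tlx3, -0.21 and -0.21 for Drgx). Pou4f3 lost its call in 10 of the 16 alternatives. SNI + G15 replicate 3 differed more from its group than other libraries did (chi-square per degree of freedom of 9.34 and 9.03 against 2.71 to 4.96 for all pairs without it). Without it the same number, 3, was called, with log2 fold changes of 0.28 for Tlx3, -0.22 for Drgx and -0.30 for Pou4f3.

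Isl1 and Prdm12 had lower FPKM with G15 in every library than in every SNI library, yet did not pass. In CPM the Prdm12 libraries overlapped, at 137.9, 146 and 140.6 with G15 and 155.8, 140.6 and 147.5 in SNI. Isl1 had 21.3, 21.1 and 21.6 FPKM, at a log2 fold change of -0.08 (95% interval -0.20 to 0.04, adjusted p = 0.35). Prdm12 had a log2 fold change of -0.06 (interval -0.18 to 0.05, adjusted p = 0.401). With Tlx3, Drgx and Pou4f3 they made 5 of 10 genes whose FPKM ranges did not overlap, against 38.3% of all tested genes. Shox2 had a log2 fold change of 0.02 (interval -0.25 to 0.29) and -0.15 without SNI + G15 replicate 3. Pou4f1 (0.01, interval -0.08 to 0.11), Runx1 (-0.03, interval -0.16 to 0.09), Runx3 (-0.01, interval -0.21 to 0.19) and Pou4f2 (0.10, interval -0.04 to 0.24) did not pass either.

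In this comparison short genes stood higher than long ones across the table. The median log2 fold change was 0.22 over the 1471 tested genes with an effective length (from the ratio of estimated count to FPKM) under 1000 bases and -0.07 over the 5470 above 3000 bases. Tlx3 has an effective length of 1590 bases, close to that of Shox2 (1561), while Drgx has 2410 and Pou4f3 2277. With a smooth length trend removed, an alternative added after the data were seen, Tlx3 was 0.25, Drgx -0.22 and Pou4f3 -0.24, all still called. Isl1, at 1043 bases the shortest of the 10, was then called as well, at -0.20 with an adjusted p of 0.0362.

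Against sham, SNI + G15 ganglia had 6 factors lower and none higher by the test: Prdm12 (-0.62), Shox2 (-0.60), Pou4f3 (-0.59), Isl1 (-0.45), Drgx (-0.36) and Runx1 (-0.24, adjusted p = 0.0294, lost in 6 of the 16 alternatives). DESeq2 also called 6 as lower and 0 as higher, while limma called 5 as lower and 1, Tlx3, as higher. Tlx3 gained a call as higher in 6 of the 16 alternatives, those by limma among them. DESeq2 called 38.3% of all tested genes, and limma 41.8% on log2(FPKM + 1) and 41.5% on log2(FPKM + 0.1). This comparison shares its samples with both others and is no separate evidence. Over all tested genes 43.2% were called, 21.4% as higher and 21.9% as lower. The ranges of 6 of the 10 genes did not overlap, against 52.9% of all tested genes. Tlx3 stood at 0.16 (95% interval 0.0041 to 0.31, adjusted p = 0.0903) and its range did not overlap that of sham in FPKM but did overlap it in CPM. Scaling libraries to pan-neuronal markers shifted the median of all tested genes from -0.0037 to 0.18 here. On that scale Pou4f1 was 0.18 (adjusted p = 0.0293), close to that shift, and Tlx3 was 0.33.

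The deposited transcript table lists 1 transcript for 8 of the 10 genes, 2 for Prdm12 and 4 for Runx1. Both Prdm12 transcripts had lower FPKM in each injured library than in each sham library. The more abundant one had 50.7, 49.5 and 53.5 FPKM in sham, 34.1, 36.2 and 35.4 in SNI and 32.5, 33.1 and 32.9 in SNI + G15. The less abundant one had 16.4, 15.4 and 18.4 FPKM in sham and 14.3, 10.3 and 12.1 in SNI. Its share of the gene was 24.6%, 25.7% and 26.6% on average in sham, SNI and SNI + G15, so the mix stayed within the spread of the SNI libraries (22.2% to 29.5%).

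The Runx1 mix was less steady. Its main transcript made up 49.0% to 52.3% of the gene over the sham libraries. Its share was 56.7% to 61.3% after SNI, and with G15 it was 55.6% to 59.7%, with no overlap between sham and the injured groups. How often shares fail to overlap in other genes with several transcripts was not counted. The second transcript varied from 20.6% to 43.6% among the sham libraries alone. The other two were below 2 FPKM throughout and listed at 0 in some libraries. FPKM divides reads by transcript length and counts do not, and the part of the transcript mix in the difference between the counts and the FPKM of Runx1 was not tested.

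**Figure D3:**
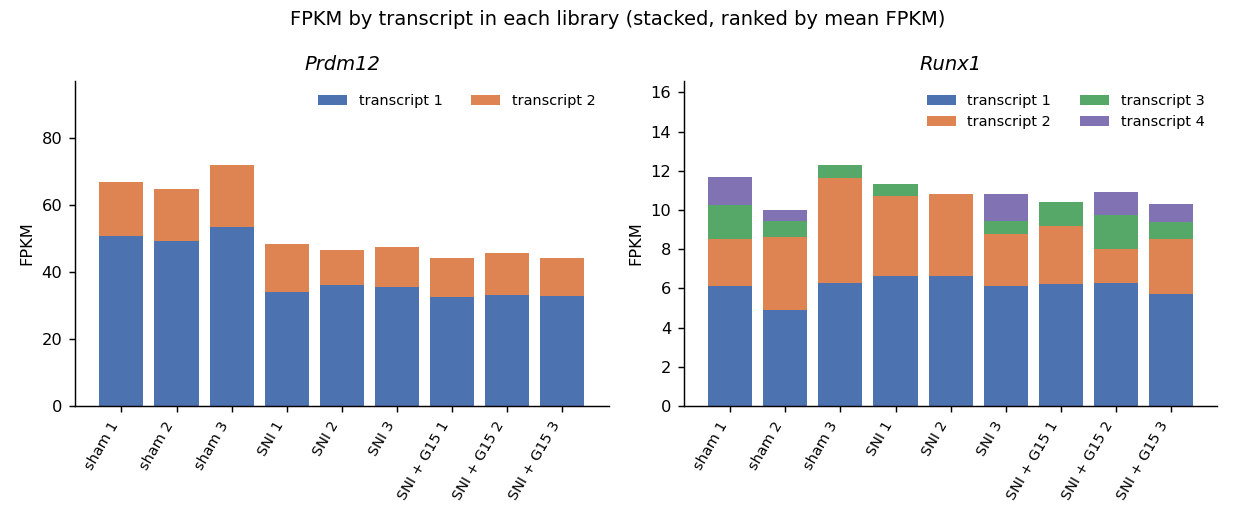
FPKM of the transcripts of Prdm12 (left, 2 transcripts) and Runx1 (right, 4 transcripts) in each of the 9 libraries, stacked so that the bar height is the gene's FPKM. Both Prdm12 transcripts are lower in each injured library than in each sham library, and the smaller Runx1 transcripts vary from library to library.

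The genes whose pattern over the 9 libraries was most like each factor were sought among 129 genes of cell class and transcription factor lists, by the root mean square difference of mean-centred log2 CPM (counts scaled to library size). Prdm12 was nearest to Rbfox3 (0.042), which encodes the neuronal nuclear protein NeuN. Isl1 was nearest to Avil (0.048), advillin of sensory neurons, and Pou4f3 to the heat channel Trpv1 (0.072). Shox2 was nearest to Pvalb (0.091), a calcium-binding protein of proprioceptors, followed by Bcl11a (0.093). Pou4f1 was nearest to Tshz2 (0.046) and Rbfox1 (0.047), and Drgx to Ebf3 (0.050) and the cold channel Trpm8 (0.059). Runx1 was nearest to Casz1 (0.076), Runx3 to Ret (0.079) and Pou4f2 to Tshz2 (0.059). The measure is not scaled to a gene's own spread, so genes that hardly changed lie near each other whatever their pattern. Pou4f1, Pou4f2, Runx3, Tshz2 and Ret passed the edgeR test in no comparison. Tlx3 was nearest to no neuronal gene but to Col1a1 (0.069), Col3a1 (0.080) and Apoe (0.085), genes of matrix and glia.

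Other transcription factors of the sensory lineage were mixed in direction. Of 30 listed, 29 were in the table and 22 were tested. After injury 8 fell (Bcl11a, Isl2, Prdm8, Etv1, Myt1l, Etv4, Casz1 and Maf) and 3 rose (Onecut2 and Klf7 among them), with a list median of -0.08. The shares called over all tested genes were 22.4% as lower and 23.3% as higher. Isl2, the closest relative of Isl1, fell by 0.63 on the log2 scale (adjusted p = 5.25e-06), and Etv1, needed by proprioceptors, had a log2 fold change of -0.55 (adjusted p = 4.36e-06). With G15 after injury 6 were lower (Cux2, Onecut2, Etv1, Myt1l, Klf7 and Ebf3) and 1, Foxs1, was higher by 0.61 on the log2 scale, with a list median of -0.13. The count of lower genes was 3 on the scale of pan-neuronal markers, with the length trend removed (median -0.07) and without SNI replicate 1 or 3. It was 4 with the replicate block and without SNI replicate 2 or SNI + G15 replicate 2, and 9 without SNI + G15 replicate 3. The called share of all tested genes in these settings ranged from 6.24% to 16.3%, against 15.2% by the main test.

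Genes used by the neuron classes that these factors set up also went both ways after injury. Of all tested genes 22.4% were called as lower and 23.3% as higher in that comparison. Of 10 nonpeptidergic nociceptor genes, the class directed by Runx1, 5 fell and 1 rose. Mrgprd had a log2 fold change of -0.58 (adjusted p = 2.21e-06) and Scn11a of -0.42 (adjusted p = 3.5e-06), while Lpar3 rose by 0.33. Of 8 peptidergic and general nociceptor genes 4 fell, Scn10a (-0.39) and Trpv1 (-0.37) among them, and 1 rose, the peptide gene Adcyap1 (2.12). Of 10 mechanoreceptor and proprioceptor genes 5 fell, Nefh (-0.66) and Pvalb (-0.63) most, and 3 rose, Gfra1 most (1.29). With G15 6 of the 10 nonpeptidergic genes were lower than in SNI and none was higher. Lpar3 was at -0.64 and Mrgprd at -0.42. The count was 3 on the scale of pan-neuronal markers, with the replicate block and without any one of the SNI libraries, and 4 with the length trend removed. Of the peptidergic list 2 were lower with G15 and 1 was higher, and of the mechanoreceptor list 1 was lower and 1 was higher. The peptidergic calls numbered 0 by edgeR with the replicate block or without any one of the SNI libraries, where 4 genes had an unadjusted p under 0.05. On the scale of pan-neuronal markers edgeR called 0 as lower, with 3 lower at an unadjusted p under 0.05, and 1 as higher. Of the mechanoreceptor pair, 1 call was lost with the replicate block, by limma, with the length trend removed and without SNI replicate 1 or 2 or SNI + G15 replicate 2. In the settings named for these lists 6.24% to 13.6% of all tested genes were called, against 15.2% by the main test.

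All 13 injury-induced transcription factors listed were higher in SNI than in sham, with a list median of 1.09. Over all tested genes 23.3% were called as higher. The list is defined by a rise after injury and was chosen with earlier results of these data known, so its rise is no separate result. Atf3, the standard marker of axotomised sensory neurons, was at 3.95 FPKM in sham and 141 in SNI (log2 fold change 5.13, adjusted p = 3.97e-12), and Stat3 rose by 0.43. With G15 3 of the 13 were higher than in SNI and Atf3 was at -0.04 (adjusted p = 0.516).

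**Figure D4:**
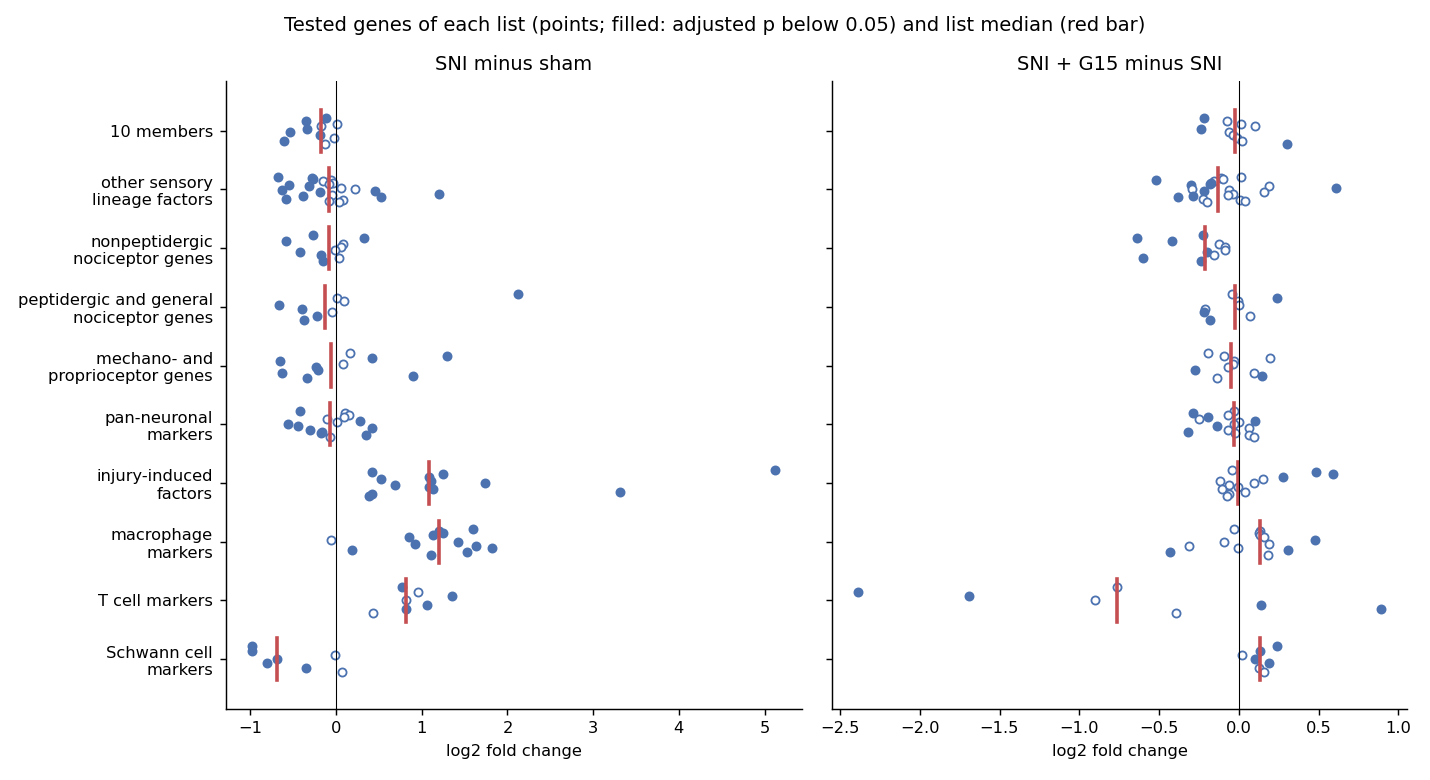
Log2 fold change of the tested genes in 10 gene lists (rows; points are genes, filled where the adjusted p is below 0.05, red bars are list medians) for SNI minus sham and SNI + G15 minus SNI. After injury 9 of the 10 identity factors lie below 0 (median -0.18). All 13 injury-induced factors (median 1.09), a list defined by such a rise, and 12 of 13 macrophage markers (median 1.20) lie above it.

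Markers of other cells moved in the same libraries. Between SNI and sham 45.7% of all tested genes were called, 23.3% as higher and 22.4% as lower. Of 15 pan-neuronal markers 6 were lower and 3 higher in SNI than in sham. Their median was -0.08. Rbfox3 (-0.56) and Avil (-0.42), the nearest genes to Prdm12 and Isl1, were among the 6 that were lower. Uchl1 (at least 2955.6 FPKM) and Tubb3 (at least 2215 FPKM) were abundant in every library, and between SNI and sham Tubb3 rose by 0.35 on the log2 scale while Uchl1 did not pass at -0.08. On the scale of the pan-neuronal markers Prdm12, Shox2, Isl1 and Pou4f3 were still called. Of 13 macrophage markers 12 were higher. Their median was 1.20, and their summed level spanned 188.5 to 207.4 FPKM over the sham libraries and 417.5 to 431.2 over the SNI ones. Runx1 is also made by blood cells and macrophages, and the part of these cells in its level was not tested. Of 7 T cell markers tested 4 were higher, and their summed level spanned 16.2 to 17.8 FPKM over the sham libraries and 33.8 to 34.2 over the SNI ones. Most of that sum was Cd4, which rat macrophages also make, and the other 7 markers listed summed to 4.19 to 5.23 FPKM in sham libraries and 7.75 to 8.4 in SNI libraries. Cd3d, Cd3g and Lck did not pass the test, and these were named after their values were seen. The number called as higher ranged from 2 to 5 over the alternatives. Runx3 is also made by T cells, and their part in its level was not tested. Of 7 Schwann cell markers 5 were lower, Pmp22 at a log2 fold change of -0.68 among them. Of 6 satellite glia markers 2 were higher and 1 was lower, of 6 endothelial markers 1 was higher and 1 was lower, and all 5 erythroid and megakaryocyte markers tested were higher.

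Some markers of several cell classes were called between SNI + G15 and SNI, where 15.2% of all tested genes were called. As higher it was 7.98% and as lower 7.25%. Of the erythroid and megakaryocyte markers 4 of 5 were lower (median -1.17), of the Schwann cell markers 4 of 7 were higher (median 0.13) and of the pan-neuronal markers 4 were lower and 1 was higher (median -0.03). Of 13 macrophage markers 2 were higher and 1 was lower, of 7 T cell markers 2 were higher and 2 were lower, of 6 satellite glia markers 1 was higher and 2 were lower, and of 6 endothelial markers 1 was higher and 1 was lower. The part of these cells in the changes of Tlx3, Drgx and Pou4f3 was not tested. All 6 fibroblast markers were higher, with a median of 0.36, and their summed level spanned 449.9 to 451.7 FPKM without the drug and 606.4 to 629.8 with it. This is beside the rise of Tlx3, whose nearest genes were the fibroblast markers Col1a1 and Col3a1 and then the satellite glia marker Apoe. The nociceptor gene Calca (0.24) and the pan-neuronal marker Prph (0.10) were also called as higher, while more genes of their lists were called as lower. The part of fibroblasts in the rise of Tlx3 was not tested. Isl1 is also a gene of motor neurons. Of 6 spinal motor neuron markers 5 were below 1 FPKM in every library, and the other, Slc5a7, was at 2.68 ± 0.241 FPKM in sham and 1.62 ± 0.0954 in SNI.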

How the data were processed

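The authors aligned paired reads of 9 DRG libraries and deposited estimated counts per gene, which need not be whole. They also deposited FPKM values (fragments scaled to transcript length and library size) per gene and per transcript, gene values being sums over transcripts. Their processing notes name the builds GRCm38 and mm10, which are mouse builds, although the gene identifiers are rat ones. The aligner is not given in the sources used here. The labels' extraction text names macrophages, against the tissue label of DRG. Columns named Control were taken as sham because the other columns name the other groups. For testing, the estimates were rounded to whole numbers, and edgeR 4.0.16 was used (R 4.3.3; TMM scaling, quasi-likelihood test, the 2 groups compared, genes with at least 1 FPKM in at least 1 library, Benjamini-Hochberg over 14305 genes, call at adjusted p below 0.05). Fold changes are on the log2 scale. Libraries held 18484557 to 18756736 estimated reads. The 10 genes had 146 to 4206 each. No 2 libraries were alike within sampling noise. The study's methods take ganglia from 3 rats of each group but elsewhere count more rats for sequencing, and the labels do not tie libraries to rats. A library may thus be 1 rat or a pool, and p-values measure the spread between these samples, which may be technical.

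Alternatives were DESeq2 1.42.0, RLE scaling, no FPKM filter, filterByExpr, limma 3.58.1 on log2(FPKM + 1) and log2(FPKM + 0.1), all 9 libraries in 1 fit, the replicate number as a block, scaling to pan-neuronal markers, removal of a length trend (added after the data were seen) and each library left out. The methods were tested on simulated counts. The 10 genes and the gene lists were chosen with earlier results of these data known. Named were the 10 genes, called genes of the lineage and neuron class lists, the 2 genes of highest mean FPKM of each other list (named where a result needs them), and the genes most like each factor. Some genes that this rule names are not reported here. Of 20194 gene identifiers 18599 matched RefSeq (GRCr8), all 10 factors among them. Promoters are RefSeq's, and the deposited tables give no coordinates.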

Additional observations from a re-analysis of the deposited data

How the results depend on the processing

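With the replicate block 5, 2 and 6 of the 10 factors were called in SNI against sham, SNI + G15 against SNI and SNI + G15 against sham (6, 3 and 6 without it). The share of all tested genes called with it was 45%, 9.03% and 40.1% (45.7%, 15.2% and 43.2% without it). Replicate numbers did not pair the samples (correlations of same-numbered libraries from -0.19 to 0.23, 3 of 9 above 0.1). With 1 library left out the counts ranged from 4 to 7, 0 to 3 and 5 to 6. The shares of all tested genes then ranged from 37.6% to 43.6%, 6.24% to 16.3% and 35.7% to 42%. Scaled to pan-neuronal markers, 1 factor was called in SNI + G15 against SNI, and the cause was not tested. Reversed values all lay among factors that the main edgeR test did not call. In its own setting 1 of them was called: Pou4f1 on the neuronal scale in SNI + G15 against sham (edgeR, adjusted p = 0.0293). For SNI against sham, Pou4f1 was -0.0023 with all 9 libraries and -0.031 with the length trend removed (-0.020 to 0.036 leaving out 1 library), and Runx3 was 0.0056 and 0.0066 by limma with pseudocounts of 1 and 0.1 and 0.032 on the neuronal scale (-0.077 to 0.060). For SNI + G15 against SNI, Runx1 was 0.0082 on the neuronal scale and 0.030 with the length trend removed, Runx3 0.030 on the neuronal scale (-0.058 to 0.029), Shox2 -0.0063 and -0.0076 by limma and -0.039 with the length trend removed (-0.15 to 0.11), and Pou4f1 -0.013 to 0.028 leaving out 1 library. For SNI + G15 against sham, Pou4f1 was 0.0029 by DESeq2 and by RLE, 0.036 and 0.037 by limma, 0.012 with all 9 libraries, 0.18 on the neuronal scale and 0.017 with the length trend removed (-0.029 to 0.026), Pou4f2 0.087 and Runx3 0.12 on the neuronal scale (-0.11 to 0.024 for Runx3 leaving out 1 library).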
